A study of Mus musculus with 12 samples.

Results

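9 neighbouring genes on mouse chromosome 4 are described here: 4933438K21Rik, Zfp982, Zfp933, Miip, Fv1, Plod1, 2510039O18Rik, Fbxo44 and Mtor. They are 9 of the 22180 genes that had a probe set of their own, and 9 of the 14031 genes tested. Each gene was measured by the 1 probe set that names it alone. The genes were chosen by their measured genotype difference, being neighbours whose liver signal differed between mice null for Ppard and wild-type mice on these same 12 arrays. For them that difference is therefore a description and carries no test. The effects of diet did not choose them and were tested.

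Total liver RNA was hybridised to Affymetrix Mouse Gene 2.0 ST arrays, whose probes lie along whole transcripts. All mice were male, had a C57BL/6 background, were 8 to 10 weeks old and were kept on a liquid diet for 16 weeks after a run-in on the control liquid diet. The 4 groups, with 3 arrays each, were Pparβ/δ-/- (null) mice on a diet with 4% (v/v) ethanol, null mice on the control diet, wild-type (Pparβ/δ+/+) mice on ethanol and wild-type mice on the control diet. The feeding study had 10 mice per group, and the labels do not say that each array is a separate mouse, so a p-value here measures the spread between samples that may be technical repeats. The labels give the null allele no construct and do not say whether the wild-type mice were littermates.

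Mtor encodes the kinase shared by mTORC1 and mTORC2, the complexes that couple nutrient and growth factor signals to protein synthesis, lipid synthesis and autophagy in the liver. Zfp982 and Zfp933 are zinc finger genes, and Zfp982 lies in a mouse cluster of KRAB zinc finger genes, a family known for recruiting Trim28 and histone methyltransferases to silence retrotransposons. Fv1 encodes a protein derived from an endogenous retroviral Gag that restricts incoming murine leukaemia virus and has different alleles in different laboratory strains.

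In RefSeq's order of genes on GRCm38.p6, 4933438K21Rik is the first of the 9 and Mtor the last, with 53 genes from one to the other. 14 genes lie between 4933438K21Rik and Zfp982, and 12 between Zfp982 and Zfp933. Zfp933, Miip and Fv1 follow one another directly, Mfn2 separates Fv1 from Plod1, and 2510039O18Rik comes next. 12 genes then separate 2510039O18Rik from Fbxo44, and 5 separate Fbxo44 from Mtor. RefSeq's promoter windows, which are 300 bases long and span a transcription start, gave 14 windows for the 9 genes. 4 sets are shown because they carry what the genes share or do not share with other loci: the promoter of Mtor, the promoters of the genes with the largest genotype differences beside their closest relatives, and the promoter stretch that Miip and Fv1 have in common.

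The Mtor promoter (GRCm38.p6, chr4:148448332-148448631, plus strand) is shown with each CCAAT box, on either strand, in capitals. It holds 4 copies.
Mtor: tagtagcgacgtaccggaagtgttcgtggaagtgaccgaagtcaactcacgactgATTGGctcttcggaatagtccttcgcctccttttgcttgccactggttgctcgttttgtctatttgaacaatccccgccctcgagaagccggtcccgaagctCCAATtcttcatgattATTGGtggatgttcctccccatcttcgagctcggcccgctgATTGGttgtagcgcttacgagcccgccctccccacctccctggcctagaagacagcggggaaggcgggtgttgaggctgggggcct

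The promoter of 4933438K21Rik (chr4:147068387-147068686, minus strand), a long noncoding RNA in RefSeq, is 97.3% identical to that of 1700095A21Rik (chr4:146546824-146547123, minus strand), another long noncoding RNA on the same chromosome and strand. The pair has 293 identical, 6 substituted and 2 unpaired bases, and capitals mark the bases that differ or are missing in the other.
4933438K21Rik: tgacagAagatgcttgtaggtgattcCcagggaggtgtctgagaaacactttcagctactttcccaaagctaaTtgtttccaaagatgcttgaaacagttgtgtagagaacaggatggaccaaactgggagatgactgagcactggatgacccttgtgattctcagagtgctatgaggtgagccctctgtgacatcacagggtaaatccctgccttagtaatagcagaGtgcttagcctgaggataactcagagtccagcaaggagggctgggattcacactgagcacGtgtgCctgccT
1700095A21Rik: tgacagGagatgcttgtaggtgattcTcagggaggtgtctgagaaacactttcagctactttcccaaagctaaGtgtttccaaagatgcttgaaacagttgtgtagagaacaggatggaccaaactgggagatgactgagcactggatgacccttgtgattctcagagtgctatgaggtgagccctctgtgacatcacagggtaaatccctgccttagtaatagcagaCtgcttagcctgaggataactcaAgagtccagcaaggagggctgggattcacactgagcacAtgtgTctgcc

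Zfp982 has 3 annotated starts, and which of them is used in these livers was not tested. The window of start 1 is at most 52.0% identical to that of any other gene, where the median identity is 43.3%. The closest to the window of start 3 is that of Gm39423 on chromosome 9, at 86.7%. The window of start 2 (chr4:147492167-147492466, plus strand) is 89.0% identical to the promoter of the zinc finger gene Zfp987 (chr4:146097062-146097361, plus strand). This pair has 271 identical, 25 substituted and 8 unpaired bases, with the same use of capitals.
Zfp982: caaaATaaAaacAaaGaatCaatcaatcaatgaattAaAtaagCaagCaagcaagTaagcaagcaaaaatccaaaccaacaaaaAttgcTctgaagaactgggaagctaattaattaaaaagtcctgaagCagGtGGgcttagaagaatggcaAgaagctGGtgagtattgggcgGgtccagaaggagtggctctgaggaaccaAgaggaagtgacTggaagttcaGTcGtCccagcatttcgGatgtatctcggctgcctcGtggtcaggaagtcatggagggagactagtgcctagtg
Zfp987: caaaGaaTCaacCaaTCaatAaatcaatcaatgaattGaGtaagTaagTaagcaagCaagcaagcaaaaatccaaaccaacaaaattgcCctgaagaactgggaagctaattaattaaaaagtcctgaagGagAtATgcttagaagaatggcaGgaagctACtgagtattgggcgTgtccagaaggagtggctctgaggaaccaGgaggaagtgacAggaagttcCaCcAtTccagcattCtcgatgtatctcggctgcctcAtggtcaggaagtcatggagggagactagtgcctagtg

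The start of Fv1 lies head to head with both starts of Miip, at distances of 260 and 463 bases. In the Fv1 window (chr4:147868729-147869028, plus strand), capitals mark the 241 bases that are also in the window of the nearer Miip start. The window of the other Miip start shares 38 bases with it.
Fv1: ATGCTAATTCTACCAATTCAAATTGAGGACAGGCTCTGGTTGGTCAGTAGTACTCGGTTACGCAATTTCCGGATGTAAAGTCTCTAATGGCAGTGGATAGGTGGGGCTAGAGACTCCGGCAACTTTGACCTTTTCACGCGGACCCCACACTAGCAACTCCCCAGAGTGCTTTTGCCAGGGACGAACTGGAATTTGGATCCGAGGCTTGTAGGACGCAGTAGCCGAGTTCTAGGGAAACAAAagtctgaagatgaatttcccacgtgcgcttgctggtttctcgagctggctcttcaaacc

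4 motifs were searched on both strands. The direct repeat of AGGTCA with 1 base of any kind between the copies, the form of element to which PPARs bind with RXR, was found in 0 of the 14 windows and in 0.0396% of all 32851 RefSeq promoter windows. Its half-site AGGTCA was found in 3 windows, of Miip, Fv1 and Fbxo44, and in 16.3% of all windows. The half-site of Miip and that of Fv1 are a single site in the stretch their windows share, counted once in each window. It is the reverse complement in the Fv1 sequence printed above. TATAAA was found in the Plod1 window alone among the 14 and in 13.6% of all windows. CCAAT was found in 8 windows of 5 genes and in 37.4% of all windows. The most CpG dinucleotides were in the windows of Plod1 (25), Fbxo44 starts 2 and 3 (22 and 21), Mtor (21) and 2510039O18Rik (17). The 4933438K21Rik window had the fewest, 1, where the median of all windows was 7. These matches describe letters in a window and nothing about the binding of a factor.

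The median log2 intensity of an array was 5.55 to 5.62, and the first principal component, with 32.3% of the variance, separated the genotypes. Ppard itself read 7.90 ± 0.12 in null livers and 7.82 ± 0.15 in wild-type livers (log2, SD, n = 6 each), a difference of 0.08 ± 0.08 (SE; adjusted p = 0.621, limma), so its summarised signal did not separate the genotypes. The place of its probes relative to the deleted part was not known, and the signal therefore checks nothing about the labels. Of 6 hepatocyte markers, 0 passed in the genotype comparison, where 7.00% of all genes tested did, 3.01% higher and 3.98% lower in null livers. Of 7 markers of Kupffer cells and macrophages, 6 were lower in null livers (4 to 7 over the other settings), with a median of -0.73 on the log2 scale and a summed linear intensity of 1970 to 3800 in null livers, against 3450 to 5510 in wild-type livers. Of the other marker lists, 1 of 5 tested sinusoidal endothelial markers was lower, and 0 of 5 stellate cell, 0 of 3 cholangiocyte, 0 of 4 lymphocyte, 0 of 1 adipocyte and 0 of 1 acinar markers passed, while 0 neutrophil markers reached the filter. In whole liver, fewer cells of a type and less RNA per cell cannot be told apart, and the part of these markers in the differences below was not tested.

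Mtor, the kinase gene, was higher in null livers on either diet. It read 10.28, 10.30 and 9.87 in null livers on ethanol and 10.01, 10.09 and 10.22 in null livers on the control diet, against 9.04, 9.35 and 9.05 in wild-type livers on ethanol and 9.17, 9.37 and 9.25 in wild-type livers on the control diet (log2 intensity). All 6 null arrays were above all 6 wild-type arrays, and the diets overlapped within each genotype. Averaged over diets, Mtor was 0.92 ± 0.09 higher in null livers on the log2 scale (SE), or 1.89-fold. The difference was 1.0 on ethanol and 0.84 on the control diet.

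Zfp982 had the largest fitted difference of the 9 genes, in the opposite direction. It read 3.52, 3.10 and 3.22 in null livers on ethanol and 4.02, 3.52 and 3.55 in null livers on the control diet. In wild-type livers it read 7.47, 6.92 and 7.64 on ethanol and 7.38, 7.06 and 7.21 on the control diet. Every null array was below every wild-type array, with a gap far wider than the spread within either genotype. The difference was -3.79 ± 0.13 (log2, SE), or 13.9-fold lower in null livers as fitted, with -4.07 on ethanol and -3.52 on the control diet. All 6 null arrays lay below the intensity filter (5.61 to 5.71, the 40th percentile of each array), so the null signal is read as dim and not as absent. Taken against the filter value in place of the dim null signal, Zfp982 was at least 3.06-fold lower in null livers. It thus passed the filter through the wild-type arrays only.

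4933438K21Rik was the gene with the largest rise. It read 7.73, 7.57 and 7.87 in null livers on ethanol and 7.92, 8.02 and 8.20 in null livers on the control diet. In wild-type livers it read 5.57, 5.95 and 5.58 on ethanol and 5.59, 4.06 and 5.09 on the control diet. The genotypes did not overlap, 5 of the 6 wild-type arrays were below the filter, and wild-type control array 2 was the lowest of all. The difference was 2.58 ± 0.20 (log2, SE), or 5.97-fold higher in null livers as fitted. Without wild-type control array 2 it was 2.37. It measured 2.03 on ethanol and 3.13 on the control diet, where all 3 wild-type arrays were below the filter. The wild-type signal is read as dim, and no bound against the filter value was taken for this gene.

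**Figure D1:**
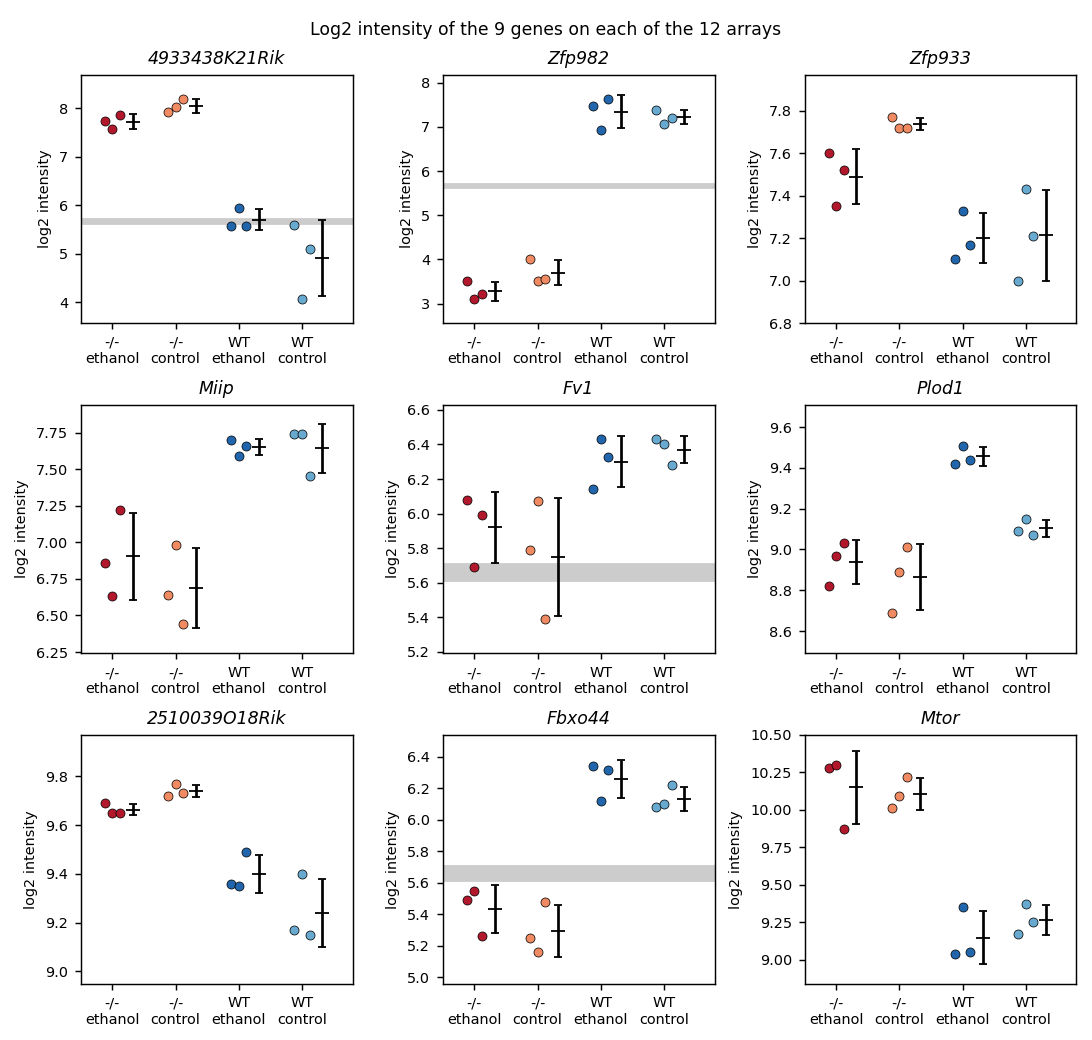
Log2 intensity (vertical axes, which differ between panels and do not start at 0) of the 9 genes in 3 arrays per group, null groups to the left of wild-type groups; points are arrays in the order 1, 2, 3, the bar beside them is the mean ± SD, and the grey band is the range of the filter (5.61 to 5.71). Zfp982 and Fbxo44 lie below the band on all 6 null arrays, Mtor and 4933438K21Rik are higher on every null array than on every wild-type array, and only Zfp933 has overlapping genotypes.

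Zfp933, the second zinc finger gene, was the only 1 of the 9 whose genotypes overlapped. It read 7.60, 7.35 and 7.52 in null livers on ethanol and 7.77, 7.72 and 7.72 in null livers on the control diet, against 7.10, 7.33 and 7.17 in wild-type livers on ethanol and 7.00, 7.43 and 7.21 in wild-type livers on the control diet. 1 null ethanol array, at 7.35, fell within the wild-type range. The difference was 0.41 ± 0.08 (log2, SE), or 1.32-fold higher in null livers.

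Miip, whose protein inhibits cell migration and invasion and binds IGFBP2, was lower in null livers. It read 6.86, 6.63 and 7.22 in null livers on ethanol and 6.64, 6.98 and 6.44 in null livers on the control diet, against 7.70, 7.59 and 7.66 in wild-type livers on ethanol and 7.74, 7.74 and 7.45 in wild-type livers on the control diet. The highest null array stayed below the lowest wild-type array. The difference was -0.85 ± 0.11 (log2, SE), or 1.8-fold lower in null livers, and the SD over 6 arrays was 0.28 in null livers and 0.11 in wild-type livers.

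Fv1, the head-to-head partner of Miip, was also lower in null livers. It read 6.08, 5.69 and 5.99 in null livers on ethanol and 5.79, 6.07 and 5.39 in null livers on the control diet, against 6.14, 6.43 and 6.33 in wild-type livers on ethanol and 6.43, 6.40 and 6.28 in wild-type livers on the control diet. The genotypes were separate by a narrow margin (6.08 in null livers against 6.14 in wild-type livers), and 2 null arrays were below the filter. The difference was -0.50 ± 0.11 (log2, SE), or 1.42-fold lower in null livers.

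Plod1, a lysyl hydroxylase that modifies collagen before it is crosslinked, read 8.82, 8.97 and 9.03 in null livers on ethanol and 8.69, 8.89 and 9.01 in null livers on the control diet. In wild-type livers it read 9.42, 9.51 and 9.44 on ethanol and 9.09, 9.15 and 9.07 on the control diet. The genotypes were separate, and among wild-type livers the ethanol arrays were all above the control arrays. The genotype difference was -0.38 ± 0.07 (log2, SE), or 1.3-fold lower in null livers, with -0.52 on ethanol and -0.24 on the control diet.

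Its neighbour 2510039O18Rik, a protein-coding gene named only by its clone, went the other way. It read 9.69, 9.65 and 9.65 in null livers on ethanol and 9.72, 9.77 and 9.73 in null livers on the control diet, against 9.36, 9.35 and 9.49 in wild-type livers on ethanol and 9.17, 9.40 and 9.15 in wild-type livers on the control diet. The genotypes were separate, and the null arrays were close together, with an SD of 0.05 in null livers and 0.13 in wild-type livers (n = 6 each). The difference was 0.38 ± 0.06 (log2, SE), or 1.3-fold higher in null livers. The starts of Plod1 and 2510039O18Rik lie head to head at a distance of 4119 bases, and their promoter windows share 0 bases.

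Fbxo44 encodes an F-box protein with an F-box-associated domain, the part of an SCF ubiquitin ligase that binds the substrate. It read 5.49, 5.55 and 5.26 in null livers on ethanol and 5.25, 5.16 and 5.48 in null livers on the control diet, against 6.34, 6.12 and 6.32 in wild-type livers on ethanol and 6.08, 6.10 and 6.22 in wild-type livers on the control diet. All null arrays were below all wild-type arrays and below the filter, so Fbxo44 too passed through the wild-type arrays only. The fitted difference was -0.83 ± 0.08 (log2, SE), or 1.78-fold lower in null livers (at least 1.44-fold against the filter value), and was alike on the diets, with -0.82 on ethanol and -0.83 on the control diet.

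Across the 9 genes, 4 were higher and 5 lower in null livers, and 8 had no overlap between the genotypes. For orientation, 7.00% of the 14031 genes tested passed an adjusted p of 0.05 in the genotype comparison, 3.01% higher and 3.98% lower in null livers. No overlap was seen for 3.58%, of which 1.47% were higher and 2.11% lower. Since this comparison chose the 9 genes, nothing is read from those shares. By size over error, the genes just inside the choice were Fv1 and Zfp933, with the values above. The gene just outside it was Dffa, which lies beyond Mtor in the gene order and is described below. Next was Angptl7, beside Mtor, at 0.32 ± 0.09 higher in null livers (log2, SE; adjusted p = 0.0524, limma), with no overlap between the genotypes. After it came Mfn2, the mitochondrial fusion gene between Fv1 and Plod1, at -0.24 ± 0.07, with overlap. On chromosome 4 as a whole, 6.55% of 885 tested genes passed.

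Directions were mixed along the chromosome. From Zfp933 to 2510039O18Rik the signs ran higher, lower, lower, lower and higher in null livers, and Fbxo44 and Mtor had opposite signs. The 53 genes from 4933438K21Rik to Mtor include 24 with a probe set of their own, of which 19 were tested. The 10 tested genes among them that are not described above were all left out for not passing. That edge depends on the settings: of 19 others, Mfn2 passed in 5 and Clcn6 and Rps19-ps3 in 3 each, and Angptl7 passed in 3 of 18. Among left-out arrays, null control array 1 gave a call for Mfn2 (adjusted p = 0.0478, limma), null control array 3 for Clcn6 (0.0326) and null ethanol array 3 for Clcn6 (0.0492). Wild-type ethanol array 1 gave one for Rps19-ps3 (0.048) and null control array 2 for Angptl7 (0.0374). The 10 genes include Clcn6 at 0.37 ± 0.11 (log2, SE), a chloride and proton exchanger, and the F-box genes on either side of Fbxo44, which were Fbxo6 at -0.05 ± 0.12 and Fbxo2 at -0.01 ± 0.10. Fbxo2 lies head to head with Fbxo44 with 574 to 1845 bases between starts, and 0 bases are shared by their windows. Within 25 genes outside the 53, 13 were tested, and Dffa, the inhibitor of the caspase-activated DNase, was the only 1 to pass, at -0.24 ± 0.07 (adjusted p = 0.0488, limma). This call was lost in 14 of 19 other settings. Leaving out 1 array ended it (adjusted p from 0.0569 to 0.119, limma) in every case but wild-type control array 2 and null control array 1.

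**Figure D2:**
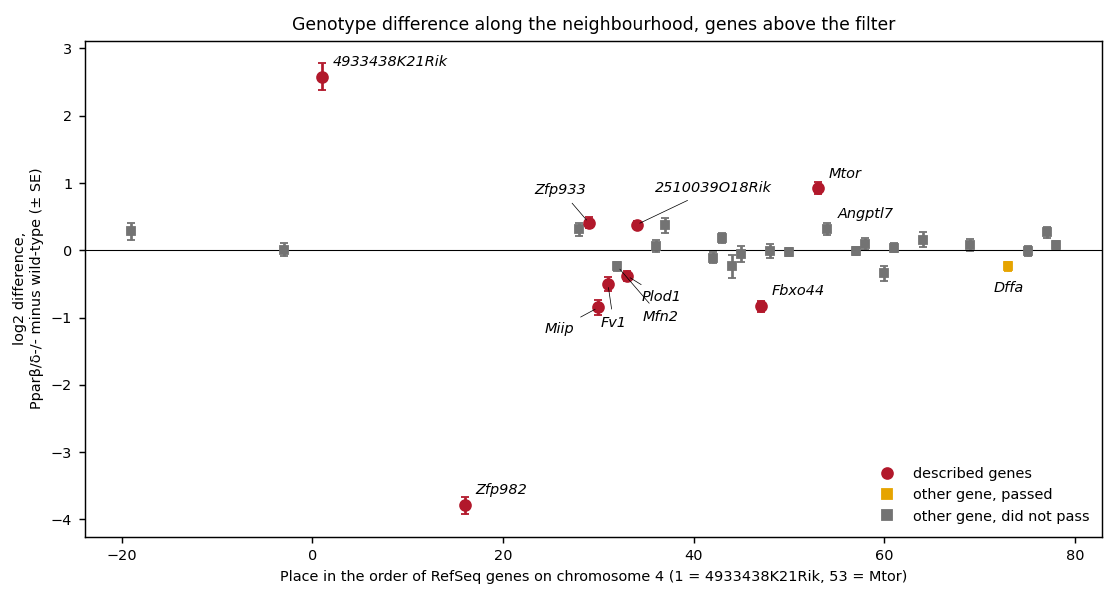
Genotype difference (log2, null minus wild-type, ± SE, vertical axis) of the 32 tested genes in the window around the 9 genes, by their place in RefSeq's order on chromosome 4 (horizontal axis). Red circles are the 9 genes, from 4933438K21Rik at place 1 (2.58) to Mtor at place 53 (0.92), the yellow square is Dffa (-0.24), and grey squares are genes that did not pass.

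Probe sets that name several genes were not used for the 9 genes but cover some of their neighbours. The probe set shared by Masp2, a protease of the lectin pathway of complement, and Tardbp, an RNA-binding protein gene, read 11.03 ± 0.10 in null livers and 10.03 ± 0.28 in wild-type livers (log2, SD, n = 6 each), with no overlap. The probe set of Tardbp alone read 8.02 in null livers and 8.35 in wild-type livers. 1 of the probe sets shared by Zfp992, Znf41-ps, Zfp991 and Zfp993, zinc finger genes near 4933438K21Rik, read 8.41 ± 0.29 in null livers and 7.62 ± 0.33 in wild-type livers, again with no overlap. Another probe set of the same genes read 6.91 ± 0.22 in null livers and 6.40 ± 0.29 in wild-type livers, with overlap. The probe set of Zfp992 alone overlapped too, at 0.28 ± 0.13 higher in null livers (log2, SE), and did not pass. The probe set shared by Zfp600, Zfp979, Zfp980, Zfp981 and Rex2 read 6.32 ± 0.30 in null livers and 6.26 ± 0.26 in wild-type livers, with overlap. Which gene of such a set gives the signal cannot be told apart.

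Most genes whose promoters resemble those printed above were dim. 1700095A21Rik read 2.21 ± 0.54 in null livers and 2.20 ± 0.49 in wild-type livers (log2, SD, n = 6 each). The next closest relatives of the 4933438K21Rik promoter, 1700030F04Rik on chromosome 6 (96.3% identical) and 1700030N03Rik on chromosome 19 (92.3%), read 5.03 and 5.52 in null livers, against 4.78 and 5.46 in wild-type livers. All 3 were below the filter and were not tested. Of 10 genes with a promoter at least 70% identical to one of Zfp982's, 8 had their own probe set and 1, Zfp600, was tested. It read 5.60 in null livers and 5.54 in wild-type livers and did not pass. Zfp984, below the filter, read 4.79 ± 0.25 in null livers and 5.46 ± 0.22 in wild-type livers. Sequence shared between such genes can also lie in their transcripts, and whether the probes of 4933438K21Rik or Zfp982 match a relative was not tested.

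For ethanol, 0 of the 9 genes passed the test over all genes (limma, adjusted p from 0.4 to 0.914 in null mice and from 0.143 to 0.985 in wild-type mice). The average over genotypes (0.274 to 0.903) and the interaction (0.245 to 0.987) also gave 0 calls. The background was close to 0: 0.00713% of genes passed for ethanol in null mice, 0.0927% for ethanol in wild-type mice, 0.0143% for ethanol averaged over genotypes and 0.0143% for the interaction. At an unadjusted p under 0.05, 2 of the 9 were reached in null mice, where 12.2% of all genes were, and 2 in wild-type mice, where 14.5% were. The average over genotypes gave 1 of the 9, where 12.1% of all genes were reached, and the interaction gave 1, where 15.0% were. 4933438K21Rik was among the 2 in wild-type mice and was the 1 for the interaction. It was below the filter on 5 of the 6 wild-type arrays, so these counts rest partly on a dim signal. In null mice, 4 of the 9 genes had all ethanol arrays below all control arrays, where 18.6% of all genes had no overlap, 5.59% higher and 13.0% lower on ethanol. Zfp982 was among the 2 reached in null mice and among these 4, and Zfp982 and Fbxo44 were below the filter on every null array. Without them, 7 genes gave 1 at the unadjusted threshold and 3 with no overlap in null mice. In wild-type mice the arrays were separate for 1 gene, in the other direction, where 19.4% had no overlap, 10.8% higher and 8.61% lower on ethanol.

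The diet values nearest to a call were those of Plod1. On the arrays given above, wild-type livers averaged 9.46 ± 0.05 on ethanol and 9.10 ± 0.04 on the control diet (log2, SD, n = 3 each). The difference was 0.35 (95% confidence interval 0.14 to 0.56, unadjusted p = 0.00288, adjusted p = 0.143, limma). In null livers it was 0.08, with an interval of -0.13 to 0.28. The interaction was -0.28 ± 0.14 (SE; adjusted p = 0.359, limma), so a difference between the genotypes in the response of Plod1 was not shown. With array weights in the fit, the wild-type difference was 0.37 and passed (adjusted p = 0.0313, limma), the one setting of those tried in which it did.

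Zfp982 did not pass for diet in either genotype. Null livers averaged 3.28 ± 0.21 on ethanol and 3.70 ± 0.28 on the control diet (log2, SD, n = 3 each), a difference of -0.42 (interval -0.82 to -0.01, adjusted p = 0.4, limma) in a range below the filter. In wild-type livers the difference was 0.12 (interval -0.28 to 0.53). For 4933438K21Rik the difference was -0.32 in null livers (interval -0.92 to 0.28). In wild-type livers it was 0.78 (interval 0.18 to 1.38, adjusted p = 0.234, limma). The wild-type value was 0.35 without wild-type control array 2, and the interaction, -1.11 ± 0.39 (adjusted p = 0.245, limma), was -0.68 without it.

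Mtor averaged 10.15 ± 0.24 on ethanol and 10.10 ± 0.10 on the control diet in null livers (log2, SD, n = 3 each), a difference of 0.04 with an interval of -0.23 to 0.32. In wild-type livers it averaged 9.15 ± 0.18 on ethanol and 9.27 ± 0.10 on the control diet, a difference of -0.12 with an interval of -0.40 to 0.16. A change of the size of its genotype difference lies outside both intervals. Miip, Fv1, Fbxo44 and 2510039O18Rik had intervals for ethanol that held 0 in both genotypes. Zfp933 was -0.25 in null livers (interval -0.49 to 0.00, adjusted p = 0.405, limma) and -0.01 in wild-type livers (interval -0.25 to 0.24).

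**Figure D3:**
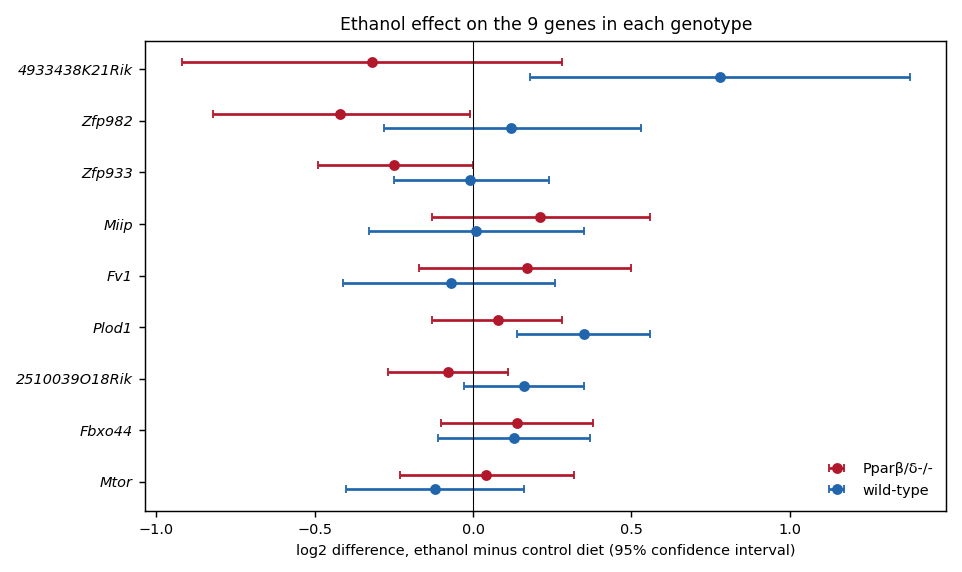
Difference between ethanol and control diet (log2, horizontal axis) of the 9 genes, with its 95% confidence interval, in null mice (red, upper) and wild-type mice (blue, lower). The interval excludes 0 for Plod1 (0.35) and 4933438K21Rik (0.78) in wild-type mice and for Zfp982 (-0.42) and, with an edge that rounds to 0.00, Zfp933 (-0.25) in null mice, and no gene passed the test adjusted over all genes.

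Within groups, correlations between the 9 genes had either sign. After group means were taken out, the 36 pairs had Pearson correlations with a median of 0.04 over the 12 arrays, 20 positive and 16 negative, as a description with no test. The highest was Miip with Fv1, at 0.71. Whether the promoter stretch that these genes share bears on this correlation was not tested. The lowest was Fv1 with Fbxo44, at -0.80, followed by 4933438K21Rik with 2510039O18Rik, at -0.79. Mtor with Zfp982 was -0.51 within groups and -0.97 over all 12 arrays, where the points share the genotype difference that chose the genes.

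**Figure D4:**
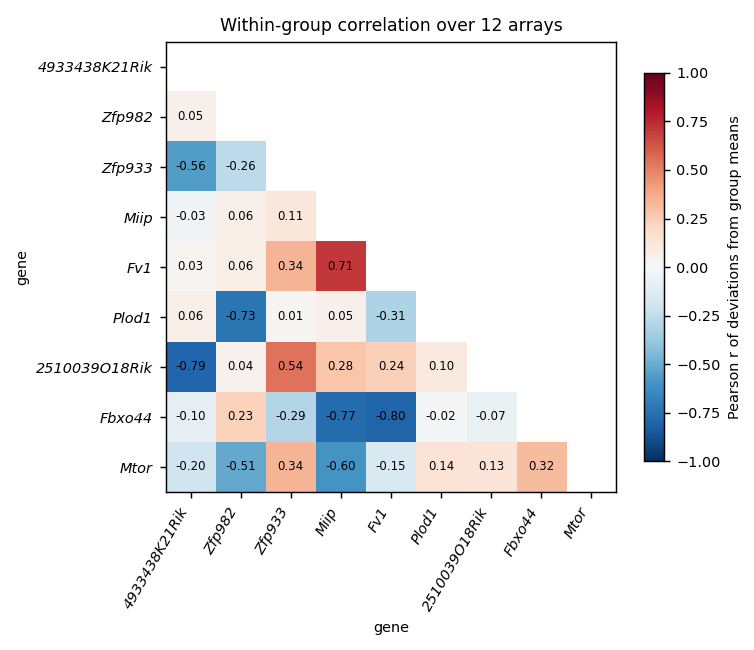
Pearson correlation (colour scale from -1 to 1, value in each cell) between the deviations from group means of each pair of the 9 genes over 12 arrays. Miip with Fv1 is the highest (0.71) and Fv1 with Fbxo44 the lowest (-0.80), and the median of the 36 pairs is 0.04.

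Leaving out predicted genes, clone names and the like, the genes most like Zfp982 over the 12 arrays lay mostly on other chromosomes. By Pearson correlation of log2 intensity these were Mug2 (0.991), Pnrc2 (0.976), Lncbate1 (0.975), Mme (0.972) and Slc15a5 (0.972), and the most opposite were Ctse (-0.987), Abca3 (-0.973) and Prelid2 (-0.972). Of the genes left out, 2 were at least as like Zfp982 as Slc15a5 was. Most like Mtor were Asic5 (0.961), Abca3 and Ctse (0.956 each), Fam131c and Pik3c2g (0.940 each), and most opposite were Mid1 (-0.973), Mug2 (-0.962) and Pnrc2 (-0.956). Pnrc2 and Fam131c are also on chromosome 4, with 338 and 169 RefSeq genes between them and 4933438K21Rik. The 12 points of each correlation share the split into 2 genotypes. Mug2, a murinoglobulin protease inhibitor made by the liver, read 8.36 in null livers and 12.09 in wild-type livers, and Ctse, the protease cathepsin E, read 11.64 in null livers and 5.92 in wild-type livers.

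Partner genes of Mtor were compared between the genotypes in 3 lists, whose calls stand beside 7.00% of all genes. Of 11 genes for subunits and assembly factors of the mTOR complexes, 0 passed, with a median difference of 0.03 beside 0.00 for all genes tested. The nearest to a call was Akt1s1, the PRAS40 subunit of mTORC1, at -0.18 ± 0.06 (log2, SE; adjusted p = 0.0769, limma), and it passed with the stricter filter (adjusted p = 0.0492, limma). Rictor, the core subunit of mTORC2, was at -0.07 ± 0.07. Of 31 genes that carry growth factor, amino acid and lysosomal signals to mTORC1, 1 was lower and 0 were higher, with a median of 0.06. The gene that fell was Rheb, the GTPase that activates mTORC1, at -0.29 ± 0.06 (adjusted p = 0.0158, limma), or 1.22-fold lower in null livers. Flcn (0.21), Nprl3 (0.26) and Castor1 (0.24) had adjusted p-values of 0.0591, 0.0594 and 0.0608 (limma). All 3 passed with the stricter filter, with quantile normalisation or with array weights, and without wild-type control array 2 the list had 3 lower and 0 higher. Leaving out wild-type control array 1, wild-type ethanol array 2, null control array 1 or 3, or null ethanol array 3 gave 1 higher and 1 lower.

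Among 17 substrates and outputs of mTOR, 2 were higher and 0 lower, with a median of 0.05. They were Ulk1, the kinase that starts autophagy, at 0.42 ± 0.08 (log2, SE; adjusted p = 0.00793, limma), and Eef2k, the kinase of elongation factor 2, at 0.50 ± 0.10 (adjusted p = 0.0102, limma). The count was 4 higher with array weights and also without wild-type control array 2. Eif4ebp2 was at 0.26 ± 0.09 and Larp1 at -0.23 ± 0.07, and neither passed. Rheb, Ulk1 and Eef2k passed in all 19 other settings. No gene of these 3 lists passed for ethanol in either genotype, for the average or for the interaction. Rps6kb1 and Pdcd4, of the list of substrates and outputs, had no probe set of their own. The values are transcript signals, and the activity of mTOR was not measured.

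**Figure D5:**
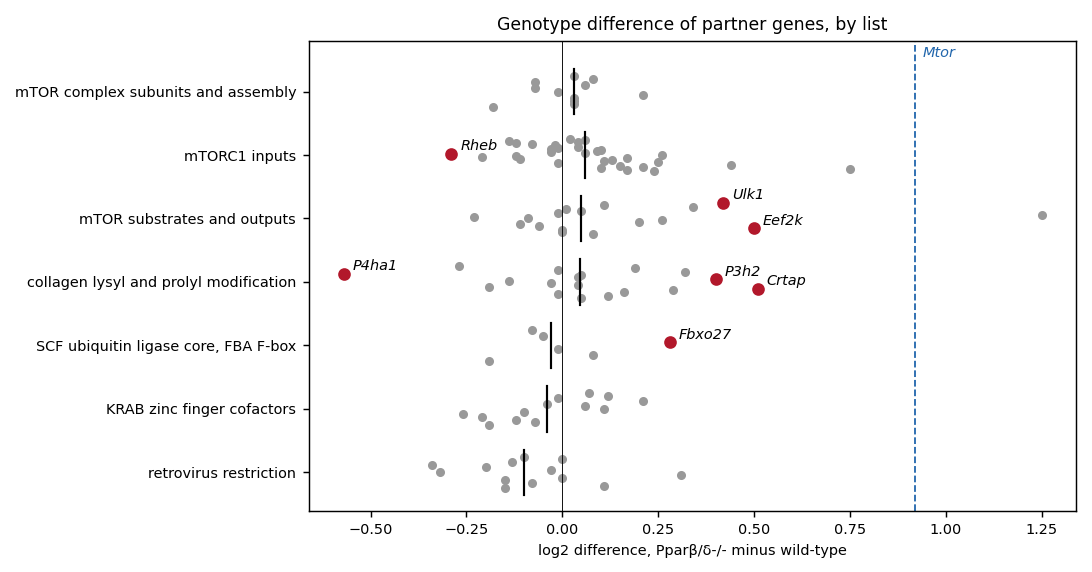
Genotype difference (log2, null minus wild-type, horizontal axis) of each tested gene of 7 lists of partner genes (rows); red points passed an adjusted p of 0.05, black bars are list medians, the vertical spread of points has no meaning, and the dashed line is Mtor (0.92). Medians run from -0.10 to 0.06, and the red points are Rheb, Ulk1, Eef2k, P4ha1, P3h2, Crtap and Fbxo27.

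For Plod1, the list held enzymes and chaperones of collagen modification and 3 collagen chains. Of 18 tested, 2 were higher and 1 lower in null livers, with a median of 0.05. Of all genes tested, 3.01% were higher and 3.98% lower. Crtap, a partner of prolyl 3-hydroxylase, was at 0.51 ± 0.08 (log2, SE; adjusted p = 0.00187, limma) and the prolyl 3-hydroxylase P3h2 at 0.40 ± 0.11 (adjusted p = 0.0431, limma). P4ha1, a prolyl 4-hydroxylase subunit, was at -0.57 ± 0.11 (adjusted p = 0.00969, limma). P3h2 lost its call in 10 of 18 other settings. Leaving out 1 array ended it (adjusted p from 0.0641 to 0.106, limma) in every case but wild-type ethanol array 3, null control array 1 and null ethanol array 2. Crtap and P4ha1 passed in all 19 other settings. The collagen chains Col1a1 and Col1a2 were at 0.05 ± 0.07 and 0.12 ± 0.09 and did not pass.

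The genotype calls of the lists for Fbxo44, the zinc finger genes and Fv1 also stand beside 7.00% of all genes. For Fbxo44, 6 genes of the SCF core and of related F-box proteins were tested, of which 1 was higher and 0 lower, with a median of -0.03. Fbxo27, an F-box protein that recognises glycoproteins, was at 0.28 ± 0.08 (log2, SE; adjusted p = 0.0446, limma), a call lost in 11 of 18 other settings. Leaving out 1 array ended it (adjusted p from 0.0605 to 0.109, limma) in every case but wild-type control array 1, wild-type ethanol array 3 and null ethanol array 1. Cul1, the scaffold of the ligase, was at -0.19 ± 0.08. Without wild-type control array 2 it passed at -0.25 (adjusted p = 0.0384, limma), which gave the list 0 higher and 1 lower. For the zinc finger genes, 0 of 13 cofactors of KRAB zinc finger proteins passed, with a median of -0.04, and Chd3, a chromatin remodeller, came nearest at -0.26 ± 0.08 (adjusted p = 0.0625, limma). For Fv1, 0 of 13 genes of retrovirus restriction and entry passed, with a median of -0.10, and Samhd1, which depletes nucleotides, was at -0.32 ± 0.09 (adjusted p = 0.0614, limma). The cofactor list had 1 lower with array weights, with the stricter filter, and without wild-type control array 1, null control array 1 or null ethanol array 3. The restriction list had 1 higher and 2 lower with array weights or without wild-type control array 2, and 2 lower with the stricter filter. It had 1 higher with the replicate block or without null control array 3, and 1 lower without wild-type control array 3, wild-type ethanol array 1 or null ethanol array 3. In these 4 lists too, 0 genes passed for diet or for the interaction, where between 0.00713% and 0.0927% of all genes did.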

How the data were processed

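The authors deposited 1 intensity per probe set and array on a linear scale (1.816 to 20156), which RMA had normalised, per the submitters' processing notes. For software versions and the build of the probe annotation, nothing was found in the labels or headers. Log2 was taken here. Of 41345 probe sets, 23521 name 1 gene, 1814 name several and 16010 have no gene listed. The brightest probe set naming 1 gene was kept per gene (22180 genes, 1082 with more than 1). RefSeq's GRCm38.p6 tables were matched by Entrez ID (23328 probe sets) and used for names, gene order and promoter sequence. Genes above the 40th percentile of their array on at least 3 arrays were tested with limma 3.58.1 (R 4.3.3): a mean per group, eBayes, 8 residual and 4.95 prior degrees of freedom, Benjamini-Hochberg adjustment per contrast, threshold 0.05. Precision is limited by having 3 arrays per group. The fit was tested on simulated data.

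The genes, the 7 lists and the marker lists were chosen with earlier results of these data known. Besides the 9 genes and Ppard, the text names up to 4 genes per list and 10 neighbours with the smallest genotype p. It also names list genes that were not tested. For Zfp982 and Mtor it gives the 5 most like and 3 most opposite named genes outside the 9. Other genes named (Fbxo2, Fbxo6, Col1a1, Col1a2, Zfp600, Zfp984, Masp2) were chosen after their values were seen, as were the relatives by promoter. Replicate numbers do not pair the arrays: deviations of the 18 same-numbered pairs correlated between -0.15 and 0.19. Alternatives were another probe set summary, filters, normalisations, variance models, array weights, a replicate block and each array left out.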

Additional observations from a re-analysis of the deposited data

How the results depend on the processing

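The genotype differences of the 9 genes kept their direction and moved by less than 1 SD in all 178 combinations of gene and alternative. Mtor ran from 0.88 to 0.99 and Zfp982 from -3.90 to -3.72 on the log2 scale. Counts over all genes moved more. Array weights gave 1863 genes for genotype (982 otherwise), 9 for ethanol in null mice (1 otherwise), 832 for ethanol in wild-type mice (13 otherwise), 133 for ethanol averaged (2 otherwise) and 38 for the interaction (2 otherwise). Without a filter the counts were 0 in null mice, 7 in wild-type mice and 1 for the interaction. With the stricter filter they were 23 in wild-type mice and 0 for the interaction. Trend and robust estimation gave 24 in wild-type mice and 4 averaged, and quantile normalisation gave 5 averaged. With the replicate number as a block the counts were 0 in null mice and 0 averaged. Leaving out 1 array gave 621 to 1317 genes for genotype, 0 to 3 in null mice, 0 to 811 in wild-type mice (811 without wild-type control array 2), 0 to 293 averaged and 0 to 84 for the interaction. The causes were not tested.

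Of 712 diet values of the 9 genes, 1 gained a call (Plod1) and 25 small values changed sign. Array weights gave 0.06 for Zfp933 in wild-type mice, -0.01 for the Miip interaction and 0.02 for Mtor averaged. Quantile normalisation gave -0.04 for Miip in wild-type mice and -0.03 for the Fbxo44 interaction, which was -0.04 with median centring. With 1 array left out, ethanol in wild-type mice ran from -0.03 to 0.34 for Zfp982, -0.11 to 0.10 for Zfp933, -0.09 to 0.06 for Miip and -0.14 to 0.01 for Fv1. In null mice it ran from -0.01 to 0.32 for Fv1, -0.01 to 0.15 for Plod1 and -0.03 to 0.18 for Mtor. Averaged, it ran from -0.04 to 0.13 for Fv1 and -0.09 to 0.03 for Mtor, and the Fbxo44 interaction from -0.06 to 0.10. Fv1 and Fbxo44 had no value with the stricter filter. Depth does not apply to arrays: signals below the filter limit Zfp982 and Fbxo44 in null mice and 4933438K21Rik in wild-type mice.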
